A study of Arabidopsis thaliana with 57 samples.

Results

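A set of 206 genes was at a higher level in leaves of Arabidopsis thaliana plants that had touched a neighbour for 1 week than in leaves of plants grown alone, and was less than 0.3 higher (log2) after 1 h of touching. The members were chosen on these same values. The group mean of log2(FPKM + 1) had to be at least 1 higher after 1 week than in individual plants and less than 0.3 higher after 1 h, with a mean of at least 3 FPKM after 1 week (FPKM is fragments normalized to transcript length and to the mapped fragments of a library). Of 32824 genes in the table, 212 met these thresholds, and 6 of them, NIT2, LTP4, LTP3, LEA7, RAB18 and RD29B, were left out by name. A further 97 genes were as much higher after 1 week and reached 3 FPKM, but were at least 0.3 higher after 1 h as well. Because the members were picked for their contact values, those values are given as a description and are not tested. The members were then followed in a second experiment that played no part in choosing them.

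RNA was sequenced from 57 libraries in 19 groups, with 3 libraries per group, each from leaves pooled from 10 to 15 plants. The contact experiment had 9 libraries from wild-type (Col-0) plants: individual plants, plants that had touched for 1 h and plants that had touched for 1 week. The other 48 libraries came from chains of 3 touching plants, either WT-hpca1-WT or 3 wild-type plants (the 3WT chain), sampled at the local leaf and at systemic leaves 1, 2 and 3. The light treatment was 2000 µmol photons for 30 min on the local leaf, and control chains stayed in control light. Only systemic leaf 2 of WT-hpca1-WT chains carried the label hpca1-1, a mutant line of the cell-surface hydrogen peroxide receptor gene HPCA1, and all other leaves were Col-0. Plants had been grown for 4 to 5 weeks at 50 µmol photons. A phosphate buffer with Silwet L-77, a wetting agent, and agarose was put on leaves to secure contact in chains and communities, and individual plants had no such contact to secure. The effects of contact and of this solution cannot be told apart. The labels give neither the time of day nor growth or sequencing batches, and p-values measure the spread between these pooled samples.

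Summed FPKM ran from 745054 to 786807 over the contact libraries and from 757989 to 804428 over the chain libraries. Fragment totals are not in the tables, and relative depth, estimated from the steps between low values, ran from 0.802 to 1.23 and from 0.790 to 1.32 in the 2 tables. Replicate 3 of the WT-hpca1-WT control at systemic leaf 3 had the lowest correlations with its own group in the chain table, and the counts on that leaf are given with and without it. The 4 leaf mesophyll markers summed to between 42118 and 53537 FPKM in every library. Markers of roots, seed storage and flowers summed to at most 1.80 FPKM in any library. HPCA1 lay between 24.2 and 33.3 FPKM in the 6 hpca1-1 libraries and between 43.4 and 61.4 FPKM in the 42 wild-type chain libraries. In the 9 wild-type contact libraries it lay between 24.2 and 32.3 FPKM, so its level in wild-type leaves differed between the 2 tables, which were normalized separately. In such bulk samples fewer cells of a type and less RNA per cell cannot be told apart.

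Many of the members belong to programmes that leaves use under lasting stress and with age. Abscisic acid is the hormone of water deficit, and its targets include late embryogenesis abundant (LEA) proteins, which protect other proteins and membranes during drying. Ageing or starved leaves take apart proteins, starch and nucleic acids and export the products through sugar, amino acid and nitrate transporters. Jasmonate drives defence against chewing insects and necrotrophic fungi, including protease inhibitors, and enzymes such as glutathione transferases and glucosyltransferases remove reactive or toxic small molecules. The sequence ACGTG is the core of the element through which basic leucine zipper factors of abscisic acid signalling bind promoters.

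The 250 bases before the annotated start were read for all 173 protein-coding members from the TAIR10.1 reference of RefSeq, by locus tag. The submitters' processing notes name TAIR10, and the tables themselves hold no coordinates. ACGTG, on either strand, was in 77 of 173 member promoters (44.5%), against 23.4% of the promoters of 16507 tested genes. In the members of water deficit and abscisic acid described below it was in 11 of 15 (73.3%), and in the nutrient members in 5 of 20 (25.0%). CCGAC, the core of the dehydration-responsive element, was in 26 member promoters (15.0%), against 13.3% of all, and in 8 of the 15 water deficit members (53.3%). TTGAC, the core bound by WRKY factors, was in 48% of member promoters against 44.1%. The evening element AAAATATCT was in 4.62% against 2.57%, and the heat shock pattern GAANNTTC in 8.67% against 9.20%. A match is only a run of letters and does not show binding. Of 8 promoters read out in full, those of 5 genes are shown, from 5′ to 3′ on the strand of the gene. Every ACGTG and its reverse complement CACGT is in capitals. CACGTG reads the same on both strands and was matched once on each. The capitals form 3 stretches in LEA4-5 (4 matches), 2 stretches each in AT3G02480 and RD20 (3 matches each), 2 in KTI1 (2 matches) and none in NRT1.8. The promoters read out but not shown, those of ELI3-2, DIN2 and AT3G59930, had no match. The 5 shown are thus no guide to how often the motif occurs.
AT3G02480 promoter (chr3:511970-512219, plus strand): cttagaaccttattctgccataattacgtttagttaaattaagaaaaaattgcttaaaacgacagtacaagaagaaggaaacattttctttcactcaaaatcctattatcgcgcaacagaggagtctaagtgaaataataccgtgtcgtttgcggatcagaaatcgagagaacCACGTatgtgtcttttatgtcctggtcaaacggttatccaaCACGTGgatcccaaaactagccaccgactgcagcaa
LEA4-5 promoter (chr5:2090431-2090680, minus strand): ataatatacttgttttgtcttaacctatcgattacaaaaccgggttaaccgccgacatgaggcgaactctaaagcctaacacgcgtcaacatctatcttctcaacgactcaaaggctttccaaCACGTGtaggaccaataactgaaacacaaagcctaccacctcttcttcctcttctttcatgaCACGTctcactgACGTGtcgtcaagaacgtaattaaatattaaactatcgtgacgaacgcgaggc
RD20 promoter (chr2:14146556-14146805, minus strand): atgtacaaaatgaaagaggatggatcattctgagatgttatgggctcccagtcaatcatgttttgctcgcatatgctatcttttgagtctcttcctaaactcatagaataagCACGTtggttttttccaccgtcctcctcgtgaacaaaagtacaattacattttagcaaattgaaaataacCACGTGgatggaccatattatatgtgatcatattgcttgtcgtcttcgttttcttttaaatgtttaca
KTI1 promoter (chr1:27548283-27548532, minus strand): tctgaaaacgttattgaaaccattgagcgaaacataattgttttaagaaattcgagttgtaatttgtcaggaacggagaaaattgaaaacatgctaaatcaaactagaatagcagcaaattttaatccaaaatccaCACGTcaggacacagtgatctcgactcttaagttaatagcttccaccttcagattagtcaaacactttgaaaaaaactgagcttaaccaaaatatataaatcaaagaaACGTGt
NRT1.8 promoter (chr4:11519806-11520055, minus strand): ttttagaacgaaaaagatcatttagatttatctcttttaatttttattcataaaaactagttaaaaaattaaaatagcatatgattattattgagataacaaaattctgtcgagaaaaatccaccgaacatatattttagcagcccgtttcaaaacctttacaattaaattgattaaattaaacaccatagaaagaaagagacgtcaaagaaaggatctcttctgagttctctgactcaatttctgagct

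Most members were near 0 FPKM in individual plants and stayed there at 1 h. The mean was under 1 FPKM in individual plants for 121 of the 206, and 40 were listed at 0 in all 3 individual libraries. The median level was 0.626 FPKM in individual plants and 8.07 FPKM after 1 week, where 92 members reached 10 FPKM and 7 reached 100 FPKM. The difference at 1 week (log2) had a median of 1.79 and ran from 1.00 to 5.72, and it was at least 2 for 90 members, at least 3 for 33 and at least 4 for 9. At 1 h the difference ran from -1.55 to 0.30 with a median of 0.00, and 88 members were lower at 1 h than in individual plants. For 173 of the 206 all 3 libraries of 1 week lay above all 3 of individual plants. The rule favours such a separation, and the share of all genes with it was not counted. Across all genes tested, limma called 9.56% higher at 1 week; the members were chosen on this contrast, and nothing is read from that share.

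Among the members 173 code for proteins. The other 33 are 10 long non-coding RNAs, 7 small nuclear and 7 small nucleolar RNAs, 5 transfer RNAs, 2 microRNA genes and 2 chloroplast identifiers not matched to the reference. These 33 behaved differently within the 1-week group. In 26 of them 1 or 2 of the 3 libraries of 1 week were listed at 0, against 3 of the 173 protein-coding members. The small nucleolar RNA gene AT3G47347 was at 521, 0 and 0 FPKM after 1 week and at 0 in the other 6 libraries. The microRNA gene MIR168a (AT4G19395) was at 0, 213 and 0 FPKM after 1 week. The transfer RNA gene AT1G06610, by its mean among the 10 most abundant members, was at 243, 0 and 0 FPKM after 1 week. The other transfer RNA members, AT5G39895, AT5G01365, AT5G07675 and AT1G07580, all had the same values, 121, 0 and 0 FPKM. Fragments may be shared among the 5, so they may not be separate measurements. Of the 33, 20 were listed at 0 in exactly 2 of the 3 libraries of 1 week, and only 4 of the 33 had all libraries of 1 week above all of individual plants, against 169 of the 173 protein-coding ones. The role groups below hold only protein-coding members, while counts over all members include the other types. From their annotation 92 protein-coding members were sorted by role into 8 groups. This sorting was made after the values had been seen, so its counts and medians are descriptions.

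**Figure D1:**
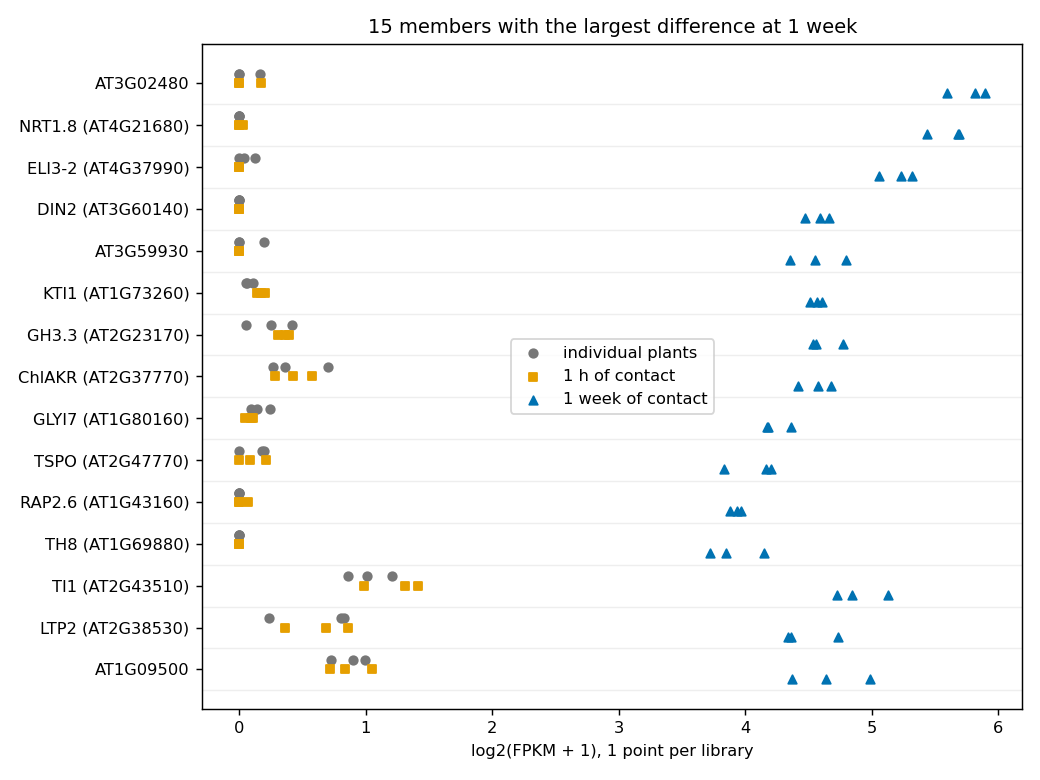
Level on the log2(FPKM + 1) scale of the 15 members with the largest 1-week difference, with 1 point per library for individual plants, 1 h and 1 week. In each of the 15 genes the points of 1 week stand clear of those of individual plants and 1 h, which lie far to the left.

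The water deficit and abscisic acid group had 15 members, with 1-week differences from 1.07 to 5.72 and a median of 2.50. AT3G02480, an LEA family gene, led the whole set. It was at 0, 0.118 and 0 FPKM in individual plants, 0.125, 0 and 0 FPKM at 1 h and 47.3, 58.6 and 55.3 FPKM after 1 week (difference 5.72). LEA4-5 (AT5G06760) was at 0, 0.173 and 0.0542 FPKM in individual plants, 0.178, 0.146 and 0.0468 FPKM at 1 h and 14.5, 13.4 and 9.43 FPKM after 1 week. The promoters of both genes carry several ACGTG matches, as shown above. RD20 (AT2G33380), a caleosin of lipid droplets induced by drought, already had a sizeable level, with 26.6, 25.7 and 27.7 FPKM in individual plants, 30.8, 31.5 and 29.4 FPKM at 1 h and 116, 126 and 131 FPKM after 1 week. NAC019 (AT1G52890) and RD26 (AT4G27410), NAC transcription factors of the abscisic acid and jasmonate responses, differed by 3.15 and 2.82. RD26 was at 3.15, 2.48 and 2.34 FPKM in individual plants, 2.97, 3.35 and 3.81 FPKM at 1 h and 21.9, 26 and 26.3 FPKM after 1 week. The libraries of 1 week lay above all others for every one of these genes. TSPO (AT2G47770), a membrane protein induced by abscisic acid, differed by 3.94, the lipid transfer protein gene LTP2 (AT2G38530) by 3.86 and HAI2 (AT1G07430), a phosphatase that restrains abscisic acid signalling, by 1.46. ALDH7B4 (AT1G54100), an aldehyde dehydrogenase, was among the 10 most abundant members, at 79.5, 81.6 and 85.2 FPKM after 1 week and 29.3, 29.3 and 29.8 FPKM in individual plants.

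Genes of nutrient transport and remobilisation made up a group of 20, with a median difference of 1.97. NRT1.8 (AT4G21680), which takes nitrate out of the xylem sap, was listed at 0 in all 3 individual libraries, at 0.0204, 0 and 0 FPKM at 1 h and at 42.3, 50.8 and 50.2 FPKM after 1 week. DIN2 (AT3G60140), a beta-glucosidase induced in darkened and sugar-starved leaves, was listed at 0 in all 6 earlier libraries and reached 21.2, 24.3 and 23.1 FPKM. Both genes were thus not detected in individual plants. Sugar genes included the hexose importer MSS1 (AT5G26340) at 38.8, 42.7 and 41.7 FPKM after 1 week against 8.12, 8.18 and 9.16 FPKM in individual plants, and sucrose synthase SUS1 (AT5G20830) at 28.8 ± 2.04 FPKM against 5.21 ± 0.759 FPKM (SD, n = 3). GPT2 (AT1G61800), which imports glucose 6-phosphate into plastids, differed by 3.24, and LKR/SDH (AT4G33150), the enzyme that starts lysine breakdown, by 3.01. NAC6 (AT5G39610, also ORE1), a NAC factor that promotes leaf ageing, was at 5.63, 5.71 and 4.05 FPKM after 1 week and at 0.267, 0.253 and 0.540 FPKM in individual plants. SEN1 (AT4G35770), a gene of darkened and ageing leaves, lay closer to the threshold with a difference of 1.06, and WRKY6 (AT1G62300), a factor of senescence and phosphate responses, had 1.55. The neighbouring gene BGLU16 is also a member, and fragments of BGLU16 and DIN2 may be shared, so the level of each is uncertain.

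The 20 detoxification and redox members had a median difference of 1.91. ELI3-2 (AT4G37990), a cinnamyl alcohol dehydrogenase, was at 0.087, 0.0235 and 0 FPKM in individual plants, at 0 in the 3 libraries of 1 h and at 32.3, 38.8 and 36.6 FPKM after 1 week (difference 5.15). ChlAKR (AT2G37770), a chloroplast aldo-keto reductase that reduces reactive carbonyls, was at 0.623, 0.202 and 0.283 FPKM in individual plants and 20.4, 22.9 and 24.7 FPKM after 1 week. It lies beside its relative AKR4C8 (AT2G37760), also a member, and fragments may be shared between the pair. The glyoxalase family gene GLYI7 (AT1G80160) differed by 4.08, the thioredoxin gene TH8 (AT1G69880) by 3.90 and ADH1 (AT1G77120), alcohol dehydrogenase of the response to low oxygen, by 3.19. MT2A (AT3G09390), a metallothionein that binds metal ions, and NSP5 (AT5G48180), which steers glucosinolate breakdown towards nitriles, were among the most abundant. MT2A had 361, 422 and 406 FPKM after 1 week, against 186, 198 and 177 FPKM in individual plants, and was lower at 1 h with 145, 146 and 139 FPKM. NSP5 had 85.3, 97.7 and 95.4 FPKM after 1 week and 19.4, 16.3 and 18.4 FPKM in individual plants. AT1G09500, a gene outside the 8 groups, differed by 3.80, with 0.861, 0.987 and 0.656 FPKM in individual plants, 1.07, 0.780 and 0.647 FPKM at 1 h and 19.7, 23.9 and 30.8 FPKM after 1 week. UGT74F2 (AT2G43820), which attaches glucose to salicylate, had 66.5, 71.4 and 67.6 FPKM after 1 week, against 18.8, 17.7 and 20.9 FPKM.

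Defence and jasmonate genes formed a group of 20 with a median difference of 2.37. Protease inhibitors were among them. KTI1 (AT1G73260), a Kunitz trypsin inhibitor, was at 0.0378, 0.0408 and 0.0764 FPKM in individual plants, 0.126, 0.153 and 0.0991 FPKM at 1 h and 21.8, 23.4 and 22.7 FPKM after 1 week. TI1 (AT2G43510), another trypsin inhibitor, was at 0.810, 1.02 and 1.30 FPKM, then at 0.978, 1.67 and 1.48 FPKM, and at 25.5, 34.1 and 27.8 FPKM after 1 week. The ERF transcription factor RAP2.6 (AT1G43160), induced by jasmonate and abscisic acid, was listed at 0 in individual plants and at 13.7, 14.3 and 14.6 FPKM after 1 week. JRG21 (AT3G55970) and AT2G38240, jasmonate oxidases that inactivate the hormone, differed by 3.78 and 3.42. BSMT1 (AT3G11480), which makes methyl salicylate and methyl benzoate, was at 0, 0.0316 and 0 FPKM in individual plants, 0.194, 0 and 0.102 FPKM at 1 h and 8.01, 7.18 and 8.53 FPKM after 1 week. CORI3 (AT4G23600), a cystine lyase induced by coronatine, a bacterial mimic of jasmonate, was the most abundant of the group with 148, 139 and 141 FPKM after 1 week and 52.2, 47.7 and 46.6 FPKM in individual plants. PR4 (AT3G04720), a chitin-binding protein, was lower at 1 h (4.07, 3.68 and 4.01 FPKM) than in individual plants (10.1, 9.09 and 7.83 FPKM) and was at 21.5, 24.5 and 18.1 FPKM after 1 week. AT3G59930, a defensin-like gene outside the 8 groups, differed by 4.50.

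Smaller groups covered auxin, heat, the clock and the cell wall. GH3.3 (AT2G23170), which joins auxin to amino acids, was at 0.192, 0.333 and 0.0387 FPKM in individual plants, 0.233, 0.309 and 0.284 FPKM at 1 h and 22.6, 26.4 and 22.2 FPKM after 1 week (difference 4.38). Its relative BRU6 (AT4G37390) differed by 2.98. The 5 heat shock members included the small heat shock proteins HSP17.6A (AT5G12030), HSP17.6II (AT5G12020) and HSP17.6C (AT1G53540) and the factor DREB2A (AT5G05410). They differed by 1.5 to 2.34 and stayed low, HSP17.6A reaching 5.25, 4.15 and 4.80 FPKM after 1 week. HSP17.6II and HSP17.6A are neighbours of similar sequence, and the split of fragments between them is uncertain. Of the 4 clock members, ELF4 (AT2G40080), part of the evening complex, was at 0.332, 0.267 and 0.677 FPKM in individual plants, 0.0929, 0.229 and 0.146 FPKM at 1 h and 4.48, 4.60 and 4.18 FPKM after 1 week. PRR5 (AT5G24470), a repressor of morning genes, was at 3.49, 3.31 and 3.68 FPKM after 1 week and 0.175, 0.487 and 0.555 FPKM in individual plants. Both genes cycle over the day, and whether the groups were sampled at the same time of day is not stated. Among the 5 cell wall and surface members, the extensin gene EXT4 (AT1G76930) was at 30.5, 37.5 and 50.4 FPKM after 1 week against 5.78, 5.83 and 5.45 FPKM, and the arabinogalactan protein gene AGP2 (AT2G22470) differed by 3.19. GASA1 (AT1G75750), a small secreted protein of the gibberellin-regulated family, was at 261, 268 and 266 FPKM after 1 week, 101, 102 and 99.5 FPKM in individual plants and 72.8, 79.2 and 75.6 FPKM at 1 h.

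The single most abundant member was AT2G25450, a 2-oxoglutarate-dependent dioxygenase gene, at 183, 191 and 186 FPKM in individual plants, 183, 177 and 171 FPKM at 1 h and 373, 447 and 447 FPKM after 1 week. AT5G61820, also among the 10 most abundant, was at 47.4, 47.2 and 48.7 FPKM in individual plants, 41.8, 42.2 and 42.5 FPKM at 1 h and 108, 113 and 116 FPKM after 1 week (difference 1.21). The thresholds cut through a continuous range. Just inside the limit on the 1-week difference were AT5G52450 (1.00), CYP81D1 (1.00) and UGE5 (1.01), and just outside were PES1 (0.995), AT3G01205 (0.992) and AT5G17460 (0.982). On the 1 h limit CYP81D1 (0.296), WRKY6 (0.289) and AT5G54165 (0.281) were inside, and PES2 (0.303), AT2G34810 (0.320) and AT5G03165 (0.368) outside. On the level after 1 week AT1G30700 (3.03 FPKM), LSU1 (3.03 FPKM) and HSP17.6C (3.07 FPKM) were inside, and CYP710A1 (2.99 FPKM), MYB102 (2.98 FPKM) and AT1G11925 (2.94 FPKM) outside.

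Genes of the same pathways that are not members were examined with limma across all 17177 genes tested in the contact table, where 9.56% were called higher and 5.29% lower at 1 week (adjusted p under 0.05). At 1 h 9.02% were called higher and 5.73% lower, and both comparisons share the individual plants. The median change of all genes was 0.03 at 1 week and -0.02 at 1 h (log2). The rule took out of each list the genes that were well above individual plants at 1 week and not at 1 h, so the counts at both times among the genes left depend on the same values as the choice of members. They are descriptions, and nothing is read from setting the times side by side. Of 25 tested abscisic acid and dehydration genes outside the set, 17 rose and none fell at 1 week (median 0.38), and at 1 h 8 rose and 4 fell (median 0.02). HAI1 (AT5G59220), a phosphatase like HAI2, was at 9.51 ± 1.20 FPKM after 1 week and 1.43 ± 0.235 FPKM in individual plants (SD, n = 3; 2.11 ± 0.15 log2, SE, limma adjusted p = 3.36e-06). ANAC055 (AT3G15500), a relative of NAC019, differed by 1.61 (log2) and was called higher. Of 12 senescence and chlorophyll breakdown genes 10 rose and none fell at 1 week (median 0.48), and 5 rose and 1 fell at 1 h; the single fall was lost under median-of-ratios scaling. SAG13 (AT2G29350), an early marker of leaf ageing, was at 83.4 ± 9.02 FPKM after 1 week and 0.893 ± 0.131 FPKM in individual plants (SD, n = 3; 5.47 ± 0.14 log2, SE, limma adjusted p = 7.37e-10), and stood outside the set because its mean at 1 h was 2.70 FPKM. SAG29 (AT5G13170), a sugar transporter of ageing leaves, rose by 1.51 (log2). Of 9 amino acid breakdown genes 7 rose and none fell at 1 week, among them BCAT2 (AT1G10070, 1.63 log2), of branched-chain amino acid breakdown, and ASN1 (AT3G47340, 0.92 log2), which stores nitrogen as asparagine. The 7 were 4 without replicate 2 of 1 week. At 1 h 2 of the 9 rose and none fell.

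Of the jasmonate response genes outside the set all 10 tested rose at 1 week (median 0.86) and at 1 h (median 1.29), for example JAZ1 (AT1G19180), a repressor of the pathway, with 14.9 ± 1.92 FPKM after 1 week, 26.4 ± 2.72 FPKM at 1 h and 3.56 ± 0.264 FPKM in individual plants (SD, n = 3). CYP94B3 (AT3G48520), which oxidises the active hormone, was among those called higher and is listed at 0 in individual plants. Of 15 salicylate genes 8 rose at 1 week (median 0.29) and 10 at 1 h (median 0.51), with none lower at either time. PR1 (AT2G14610), the usual marker of salicylate responses, was at 26.4 ± 4.20 FPKM after 1 week and 2.06 ± 0.998 FPKM in individual plants (SD, n = 3; 3.21 ± 0.22 log2, SE, limma adjusted p = 2.55e-06). UGT76B1 (AT3G11340), a glucosyltransferase that acts on salicylate, rose by 1.11 (log2). Shorter lists gave few calls. At 1 week 4 of 8 heat genes, 3 of 10 clock genes, 3 of 8 wax genes, 2 of 7 phosphate starvation genes, 1 of 6 flavonoid genes and 1 of 5 galactinol and raffinose genes rose, and none fell. HSFA2 (AT2G26150), a heat shock factor, changed by 1.39, LHY (AT1G01060), a morning clock gene, by 0.41, and PAP1 (AT1G56650), an activator of anthocyanin genes, by 0.89 (log2). The other genes called were led by the small heat shock protein gene AT1G52560 (0.89 log2), the clock gene PRR9 (AT2G46790, 0.18), the wax synthesis gene KCS6 (AT1G68530, 0.31) and MYB96 (AT5G62470, 0.25), which activates wax genes. PLDP2 (AT3G05630), a phospholipase, and SQD2 (AT5G01220), of sulfolipid synthesis, from the phosphate list rose by 1.09 and 0.18, and DIN10 (AT5G20250), of the raffinose list, by 0.36 (log2). At 1 h 2 heat, 3 clock, 3 phosphate and 1 flavonoid gene fell, and 3 wax, 1 clock and 1 galactinol gene rose. These short counts moved easily. The clock count at 1 week was 1 under median-of-ratios scaling, with the replicate block, and without any of replicates 1 and 3 of individual plants and the 3 libraries of 1 week. The wax count was 1 with the replicate block and without replicate 3 of individual plants or replicate 1 or 2 of 1 week. The flavonoid gene was lost without replicate 2 or 3 of individual plants or replicate 3 of 1 week. Leaving out single libraries of 1 week gave 2 heat genes each time, 1, 0 and 1 phosphate genes, and 2, 0 and 0 galactinol genes.

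Chain plants were also in contact, for a time the labels do not give, so the level of each member in the 24 control-light chain libraries was set beside its contact levels. The 24 include the 3 control libraries of the hpca1-1 leaf, while all contact libraries were wild type. The tables were normalized separately, so this is a comparison of levels without a test, and over 16998 genes the chain control median was 0.09 (log2) above individual plants. In chain control leaves 95 of the 206 members were nearer to their level after 1 week and 111 nearer to individual plants, and among protein-coding members 88 and 85. The median share of the 1-week difference present in control chains was 0.516 for protein-coding members. The role groups were spread along this range. In defence and jasmonate genes the median share was 0.962, and 15 of 20 were nearer to 1 week. RAP2.6 ran from 6.20 FPKM, on the hpca1-1 leaf, to 25.3 FPKM in control chains, with a median of 12.0 FPKM. TI1 ran from 17.7 to 49.4 FPKM with a median of 40.2 FPKM. CORI3 ran from 377 to 587 FPKM with a median of 437 FPKM, above its level in any contact library. PR4, with a median of 103 FPKM, likewise exceeded every contact library.

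In the water deficit group the median share was 0.173, and 6 of 15 were nearer to 1 week. The 6 included RD20 (lowest 71.2, median 94.3, highest 116 FPKM in control chains), RD26 (15.1, 25.3 and 31.4 FPKM) and NAC019 (6.44, 12.4 and 16.7 FPKM). The LEA genes were at the other end. AT3G02480 had a median of 0 and a highest value of 0.282 FPKM, and AT2G42560, another LEA gene, had 0 and 0.0233 FPKM. NRT1.8 was just as low in chains, with a median of 0.0308 and a highest value of 0.219 FPKM, and so was TH8, with 0.0831 and 0.886 FPKM. The pair with the largest 1-week differences of all, AT3G02480 and NRT1.8, was thus nearly undetected in control chains. Nutrient genes had a median share of 0.582 (11 of 20 nearer to 1 week), with the amino acid importer LHT1 (AT5G40780) at 12.1, 18.8 and 25.1 FPKM and the dormancy gene DYL1 (AT1G28330) at 71.7, 126 and 264 FPKM (lowest, median and highest), both above all contact libraries. The share was 0.392 in detoxification genes (7 of 20), 0.372 in auxin genes (1 of 3), 0.266 in heat shock genes (0 of 5), 1.45 in clock genes (3 of 4) and 0.182 in cell wall genes (2 of 5). GASA1, at 62.0, 83.5 and 97.8 FPKM, was below its level in individual plants in every control chain library.

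**Figure D2:**
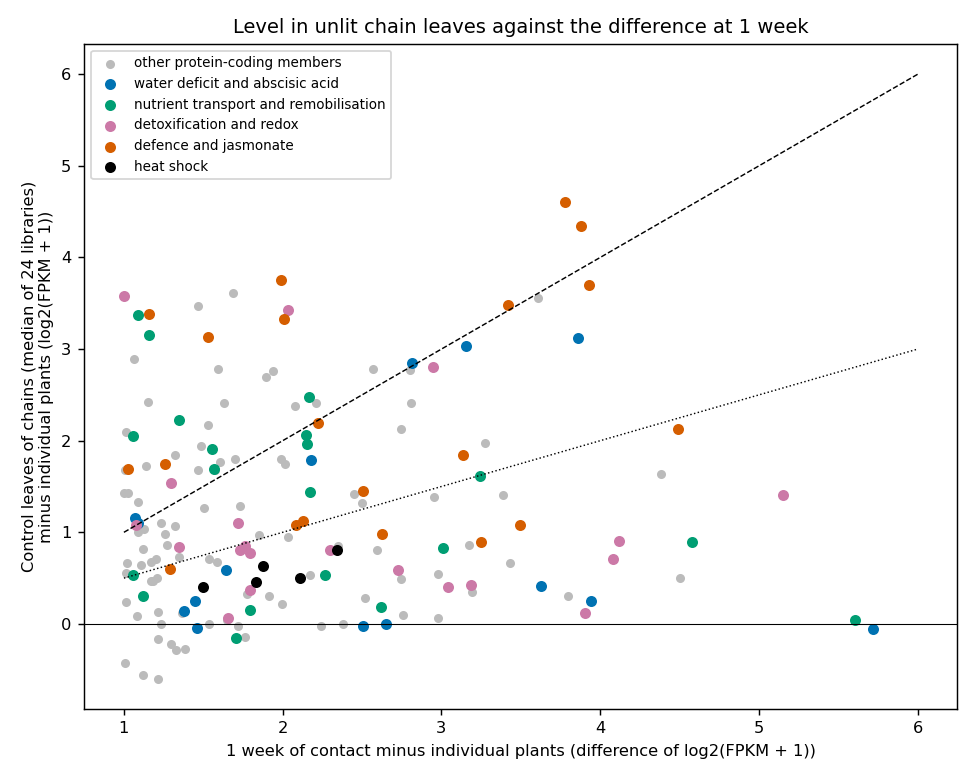
Each point is a protein-coding member, with its 1-week difference from individual plants on the x axis and its median in 24 control-light chain libraries minus individual plants on the y axis, both on the log2(FPKM + 1) scale with 5 of the role groups in colour and other members in grey. Points along the dashed line have the same difference in chains as after 1 week, points on the dotted line a smaller share of 0.5, and several of the largest 1-week differences lie near 0 on the y axis.

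Light on the local leaf of a chain changed many members, in both directions. Of the 206 members 172 passed the filter of the chain table (at least 1 FPKM in at least 3 libraries), 154 of them protein-coding, and limma was fitted to all 18735 genes that passed. Of the 172, 157 were called in at least 1 of the 8 light comparisons, 76 were called higher in one and lower in another, and 15 were called in none. Those are 91.3%, 44.2% and 8.72% of the members tested, against 84.8%, 20.6% and 15.2% of all genes. In the lit local leaf 34 members rose and 79 fell in the WT-hpca1-WT chain, where 13.6% of all genes were called higher and 48.9% lower. In the 3WT chain 36 rose and 81 fell, against 14.0% and 45.3% of all genes. The split depended on the scale. With median-of-ratios scaling, which shifted the median of all genes by 0.18 and 0.16 (log2), the counts were 44 and 65 in the WT-hpca1-WT chain and 48 and 67 in the 3WT chain. On that scale 25.7% of all genes were called higher and 22.8% lower in the WT-hpca1-WT chain, and 26.1% and 20.6% in the 3WT chain. The median change of members was -0.24 against -0.19 for the whole table along WT-hpca1-WT, and -0.19 and -0.16 in the 3WT chain.

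Systemic leaves differed between the chains in which way the members went. On systemic leaf 1, 53 members rose and 35 fell in the WT-hpca1-WT chain (9.31% and 20.1% of all genes), while 6 rose and 64 fell in the 3WT chain (7.18% and 7.58%). Falls were thus called in 37.2% of members on that leaf of the 3WT chain, and in 41.6% of the protein-coding ones. On systemic leaf 2, the hpca1-1 leaf of its chain, 16 rose and 53 fell in the WT-hpca1-WT chain (6.21% and 11.7%), and 36 rose and 62 fell in the 3WT chain (8.55% and 32.7%). Under median-of-ratios scaling, which moved the median of all genes by 0.12 there, the 3WT counts were 47 and 48 (15.7% and 13.4%). On systemic leaf 3, 63 rose and 25 fell in the WT-hpca1-WT chain (13.4% and 14.1%), and 31 rose and 36 fell in the 3WT chain (8.81% and 14.1%). The 63 were 54, and the 25 were 23, without the control library that stood apart. Without that library 17 calls of the 172 members changed in this comparison. The 63 were 37 when the 6 libraries of that comparison were fitted alone. Of all genes, 62.5%, 29.5%, 17.9% and 27.5% were called in either direction over the local leaf and systemic leaves 1, 2 and 3 along WT-hpca1-WT, and 59.3%, 14.8%, 41.2% and 23.0% along 3WT. Median changes of members on systemic leaves 1, 2 and 3 were 0.11, -0.12 and 0.15 in the WT-hpca1-WT chain and -0.20, -0.09 and 0.00 in the 3WT chain, where all genes had -0.06, -0.03 and 0.00, and 0.00, -0.12 and -0.03.

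**Figure D3:**
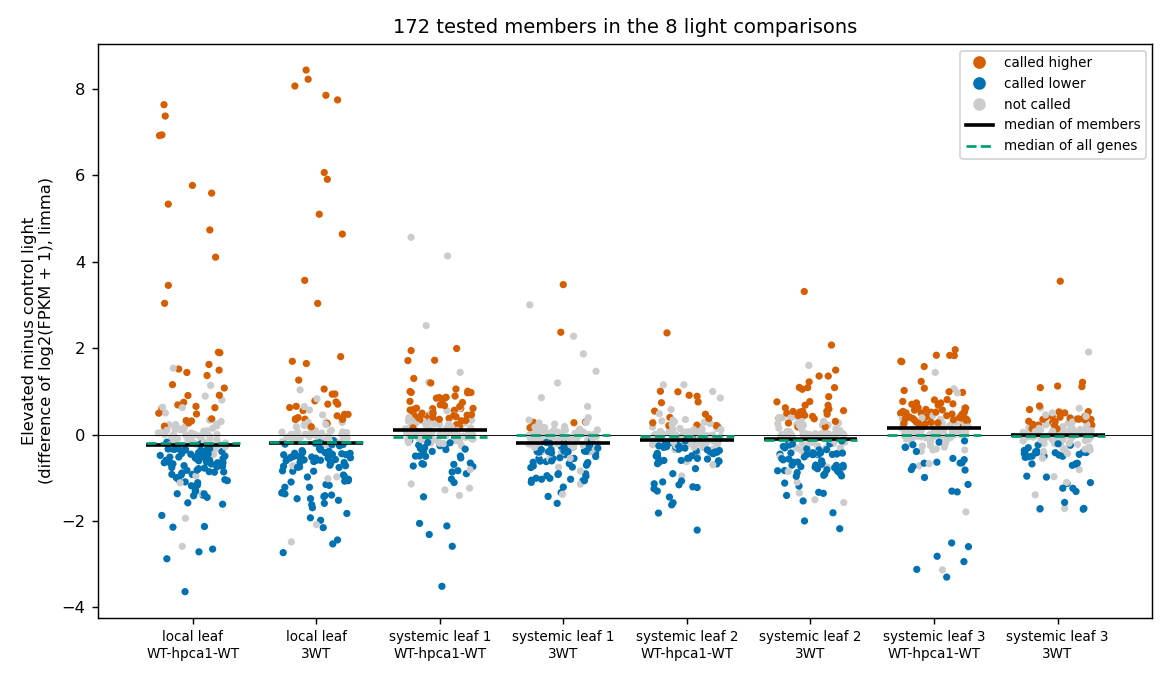
Light response (elevated minus control, log2) of the 172 tested members at each leaf position, the WT-hpca1-WT chain left of the 3WT chain, with members called higher, called lower and not called in different colours. Black bars mark the median of members and green dashed bars that of all genes; the members' median is 0.11 on systemic leaf 1 of WT-hpca1-WT chains and -0.20 on that of the 3WT chain.

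Heat shock members rose in the local leaf of both chains. HSP17.6C was at 416, 444 and 436 FPKM in elevated light and 0.970, 1.39 and 1.20 FPKM in control light in the WT-hpca1-WT chain, a change of 7.63 ± 0.16 (log2, SE, limma adjusted p = 7.75e-32). In the 3WT chain it was at 434, 427 and 419 FPKM against 0.184, 0.239 and 0.285 FPKM, a change of 8.43 ± 0.16 (limma adjusted p = 3.55e-33). All 5 members of the group rose in both local leaves, where 13.6% of all genes rose in the WT-hpca1-WT chain and 14.0% in the 3WT chain. DREB2A, which switches on heat and drought genes, reached 62.0, 64.6 and 66.9 FPKM in the WT-hpca1-WT chain and between 83.0 and 95.2 FPKM in the 3WT chain. After 1 week of contact DREB2A was at 5.64, 6.32 and 7.44 FPKM, well below its level in either lit local leaf. In systemic leaves the largest change of the group was a fall of 0.87 on the log2 scale, that of HSP17.6II on systemic leaf 1 of WT-hpca1-WT chains.

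Water deficit members rose on leaves that differed between the chains. Of the 11 tested, 7 rose and none fell on systemic leaf 1 of WT-hpca1-WT chains, while none rose and 4 fell on that leaf of the 3WT chain. Of all genes, 9.31% rose and 20.1% fell on that leaf of WT-hpca1-WT chains, and 7.18% and 7.58% in the 3WT chain. On systemic leaf 2 the pattern was the other way round, with 3 risen and 6 fallen in the WT-hpca1-WT chain and 8 risen and 2 fallen in the 3WT chain. There 6.21% of all genes rose and 11.7% fell in the WT-hpca1-WT chain, and 8.55% and 32.7% in the 3WT chain. The 2 falls were thus a smaller share than among all genes. The 3 rises and the 2 falls were each 1 when only the groups compared were fitted. The 2 falls were also 1 under median-of-ratios scaling, where 13.4% of all genes fell. RD20 shows the difference between the chains most clearly. On systemic leaf 1 it was at 355, 352 and 347 FPKM in elevated and 91.0, 87.8 and 84.3 FPKM in control light in the WT-hpca1-WT chain (1.99 ± 0.04 log2, SE, limma adjusted p = 3.95e-32). In the 3WT chain that leaf had 88.3, 95.6 and 96.9 FPKM in elevated light and 116, 115 and 115 FPKM in control light (-0.30). Systemic leaf 2 had 119, 117 and 127 FPKM in elevated and 105, 108 and 109 FPKM in control light in the WT-hpca1-WT chain, and 412, 390 and 399 FPKM against 94.6, 95.7 and 93.5 FPKM in the 3WT chain (2.07 ± 0.04 log2, SE, limma adjusted p = 6.55e-33). The replicates of a group did not overlap with those of the group it is set against in any of these comparisons, and the high values of RD20 exceeded its level after 1 week of contact. Its response on systemic leaf 3 was 0.97 in the WT-hpca1-WT chain and 1.08 in the 3WT chain.

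RD26 and NAC019 went the same way as RD20 on systemic leaf 1. RD26 was at 50.1, 52.0 and 52.3 FPKM in elevated and 19.9, 22.0 and 19.2 FPKM in control light in the WT-hpca1-WT chain, and at 18.1, 17.7 and 17.3 FPKM against 31.4, 31.1 and 29.9 FPKM in the 3WT chain. The responses differed by 2.06 ± 0.08 (log2, SE, limma adjusted p = 4.3e-22). For NAC019 the difference was 1.77 ± 0.11 (limma adjusted p = 1.53e-16). PUB19 (AT1G60190), a ubiquitin ligase of abscisic acid signalling, rose in both local leaves, to 26.3, 25.3 and 27.1 FPKM in the WT-hpca1-WT chain, where controls had 2.40, 2.16 and 2.40 FPKM, and to 21.9, 21.5 and 21.6 FPKM in the 3WT chain, where controls had 1.67, 2.08 and 1.59 FPKM. LTP2 fell in both local leaves, by 1.10 in the WT-hpca1-WT chain and by 1.69 in the 3WT chain on the log2 scale. The 4 LEA genes of the group did not pass the filter, so they were not tested along the chains.

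Defence and jasmonate members split by gene. Of 20 tested, 10 rose and 4 fell on systemic leaf 1 of WT-hpca1-WT chains and 11 rose and 2 fell on its systemic leaf 3, while 1 rose and 13 fell, and 7 rose and 7 fell, on those leaves of the 3WT chain. Of all genes, 9.31% rose and 20.1% fell, and 13.4% rose and 14.1% fell, on those leaves of WT-hpca1-WT chains. In the 3WT chain 7.18% rose and 7.58% fell, and 8.81% rose and 14.1% fell. The falls in the WT-hpca1-WT chain were thus no more frequent than among all genes. The counts of 11 and 2 were the same without the control library that stood apart. BSMT1 rose in 7 of 8 comparisons. On systemic leaf 2 it was at 9.28, 11.3 and 10.5 FPKM in elevated and 1.08, 1.01 and 1.62 FPKM in control light in the WT-hpca1-WT chain (2.35 ± 0.12 log2, SE, limma adjusted p = 4.57e-18), and at 28.3, 27.9 and 25.4 FPKM against 1.53, 2.17 and 1.86 FPKM in the 3WT chain (3.31 ± 0.12, limma adjusted p = 3.15e-23). Its exception was systemic leaf 1 of the 3WT chain, with 2.79, 2.27 and 2.71 FPKM in elevated and 4.85, 3.67 and 3.17 FPKM in control light. RAP2.6 rose on all 4 leaves of the WT-hpca1-WT chain. Its highest level was on systemic leaf 1, with 45.4, 46.9 and 41.9 FPKM in elevated and 10.9, 11.7 and 10.1 FPKM in control light, where the 3WT chain had 9.31, 10.3 and 9.89 FPKM against 14.2, 12.9 and 12.2 FPKM. JRG21 on systemic leaf 1 had 67.4, 67.5 and 64.6 FPKM in elevated and 19.8, 20.9 and 17.9 FPKM in control light in the WT-hpca1-WT chain, and 20.6, 23.7 and 23.8 FPKM against 30.3, 29.0 and 30.7 FPKM in the 3WT chain.

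PR4 and EARLI1 fell in most comparisons. PR4 fell in all 8 comparisons, with 37.0, 36.2 and 41.1 FPKM in elevated and 95.2, 103 and 103 FPKM in control light in the local leaf of WT-hpca1-WT chains, and 30.7, 30.1 and 34.8 FPKM against 112, 115 and 119 FPKM in that of the 3WT chain. EARLI1 (AT4G12480), a lipid transfer protein of the AZI1 family, fell in 7 of them, most on systemic leaf 2 of the 3WT chain (-2.00 ± 0.16 log2, SE, limma adjusted p = 3.62e-13). KTI1, whose contact difference was among the largest, was called in 3 comparisons, all of the 3WT chain. It had 6.35, 6.50 and 5.40 FPKM in elevated and 3.45, 4.48 and 3.56 FPKM in control light in the local leaf, and on systemic leaf 3 it had 1.60, 2.14 and 1.75 FPKM against 6.87, 4.62 and 6.90 FPKM.

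Of the 17 nutrient and remobilisation members tested, 11 fell in the local leaf of WT-hpca1-WT chains and 14 in that of the 3WT chain, with 1 and 2 risen, where 48.9% and 45.3% of all genes fell. Under median-of-ratios scaling 8 and 10 of the 17 fell, where 22.8% and 20.6% of all genes fell on that scale. DYL1 fell in all 8 comparisons. In the local leaf it was at 22.4, 24.3 and 22.9 FPKM in elevated and 182, 168 and 180 FPKM in control light in the WT-hpca1-WT chain (-2.88 ± 0.09 log2, SE, limma adjusted p = 3.17e-26), and at 25.1, 20.6 and 24.6 FPKM against 129, 138 and 126 FPKM in the 3WT chain. SEN1 fell in 7, and in the 3WT chain on systemic leaf 1 it was at 35.4, 36.0 and 40.3 FPKM in elevated and 40.5, 37.9 and 38.8 FPKM in control light, which overlap. NAC6 fell in all 8, by between 0.51 and 1.63 on the log2 scale. Other genes of dark or ageing leaves were called both ways, DIN2 higher in 2 comparisons and lower in 4, and WRKY6 higher in 2 and lower in 2. BAM1 (AT3G23920), a beta-amylase that degrades starch in the chloroplast, rose in both local leaves, to 119, 118 and 119 FPKM in the WT-hpca1-WT chain, where controls had 43.6, 40.8 and 40.6 FPKM, and to 107, 110 and 103 FPKM in the 3WT chain, where they had 44.1, 44.0 and 44.2 FPKM. RNS1 (AT2G02990), a ribonuclease of wounded and phosphate-starved tissue, rose on systemic leaf 2 of the 3WT chain to 12.2, 9.71 and 10.7 FPKM, against 3.85, 2.82 and 3.00 FPKM in its control light.

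Detoxification members were called in both directions. Of 19 tested, 2 rose and 10 fell in the local leaf of WT-hpca1-WT chains and 3 rose and 10 fell in that of the 3WT chain, where 13.6% and 14.0% of all genes rose and 48.9% and 45.3% fell. Under median-of-ratios scaling 4 rose and 10 fell, and 5 rose and 9 fell. On that scale 25.7% and 26.1% of all genes rose, and 22.8% and 20.6% fell. Systemic leaf 3 of WT-hpca1-WT chains had 7 risen and 2 fallen, and 8 and 2 without the control library that stood apart. Of all genes on that leaf 13.4% rose and 14.1% fell. MT2A fell in all 8 comparisons, with 233, 219 and 225 FPKM in elevated and 460, 460 and 600 FPKM in control light on systemic leaf 3 of WT-hpca1-WT chains and 248, 256 and 257 FPKM against 326, 325 and 332 FPKM on that of the 3WT chain. The value of 600 FPKM belongs to the control library that stood apart. ELI3-2 rose on systemic leaf 2 of WT-hpca1-WT chains, where it had 3.39, 4.20 and 4.47 FPKM in elevated and 1.45, 1.16 and 1.95 FPKM in control light (1.00 ± 0.12 log2, SE, limma adjusted p = 5.01e-08). Its highest value in any chain library was 5.86 FPKM, against 32.3 to 38.8 FPKM after 1 week of contact. NSP5, abundant after contact, was called once, on systemic leaf 2 of the 3WT chain (0.17), and without the control library that stood apart also on systemic leaf 3 of WT-hpca1-WT chains (0.24). PILS5 (AT2G17500), an auxin carrier of the endoplasmic reticulum, had the second largest rise called on systemic leaf 3 of these chains, with 13.3, 13.5 and 14.2 FPKM in elevated and 3.3, 2.85 and 3.2 FPKM in control light (1.83 ± 0.07 log2, SE, limma adjusted p = 7.21e-23; 1.85 without that library). Among the 5 cell wall members EXT4 fell in 5 comparisons, all 4 leaves of the 3WT chain among them, and rose in 1. GASA1 rose in 4, and AGP24 was not called in any.

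Of the 4 clock members 3 fell throughout. ELF4, PRR5 and COR27 (AT5G42900), which acts in the clock and in cold responses, fell in all 8 comparisons, and the fourth member, RVE2 (AT5G37260), a MYB-like factor, rose in the local leaf and on systemic leaf 1 of WT-hpca1-WT chains and was not called elsewhere. ELF4 on systemic leaf 3 had 0.702, 0.627 and 1.13 FPKM in elevated and 16.1, 14.5 and 13.7 FPKM in control light in the WT-hpca1-WT chain (-3.12 ± 0.20 log2, SE, limma adjusted p = 1.25e-15; -3.17 without the control library that stood apart). In the local leaf of the 3WT chain it had 0.499, 0.688 and 2.13 FPKM against 8.89, 10.3 and 12.7 FPKM (-2.53 ± 0.20, limma adjusted p = 2.21e-13). AT5G23240, a DnaJ-type chaperone gene named DJC76, also fell in all 8. It had 1.80, 1.45 and 0.892 FPKM in elevated and 31.2, 25.8 and 28 FPKM in control light in the local leaf of WT-hpca1-WT chains, and 2.54, 2.34 and 2.83 FPKM against 24.1, 21.7 and 22.4 FPKM in that of the 3WT chain. Whether lit and control leaves were taken at the same time of day is not in the labels, and its part in these falls was not tested.

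In all, 12 members were called lower in all 8 light comparisons, which is 6.98% of the 172 tested, against 1.2% of all genes (221 of 18735). Without the control library that stood apart they were the same 12. They were ELF4, PRR5, COR27, DYL1, NAC6, PR4, MT2A, the DnaJ gene AT5G23240, LETM1 (AT3G59820), a mitochondrial membrane protein, and AT1G21520, AT4G12290 and AT5G18130. The first 8 have been described above. No member was called higher in all 8, where 0.395% of all genes were. BSMT1, RD20 and the jasmonate oxidase gene AT2G38240 rose in 7, and AT2G38240 was not called lower in any; its remaining comparison was the local leaf of the 3WT chain, with between 10.1 and 11 FPKM in elevated and between 9.44 and 11.4 FPKM in control light.

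**Figure D4:**
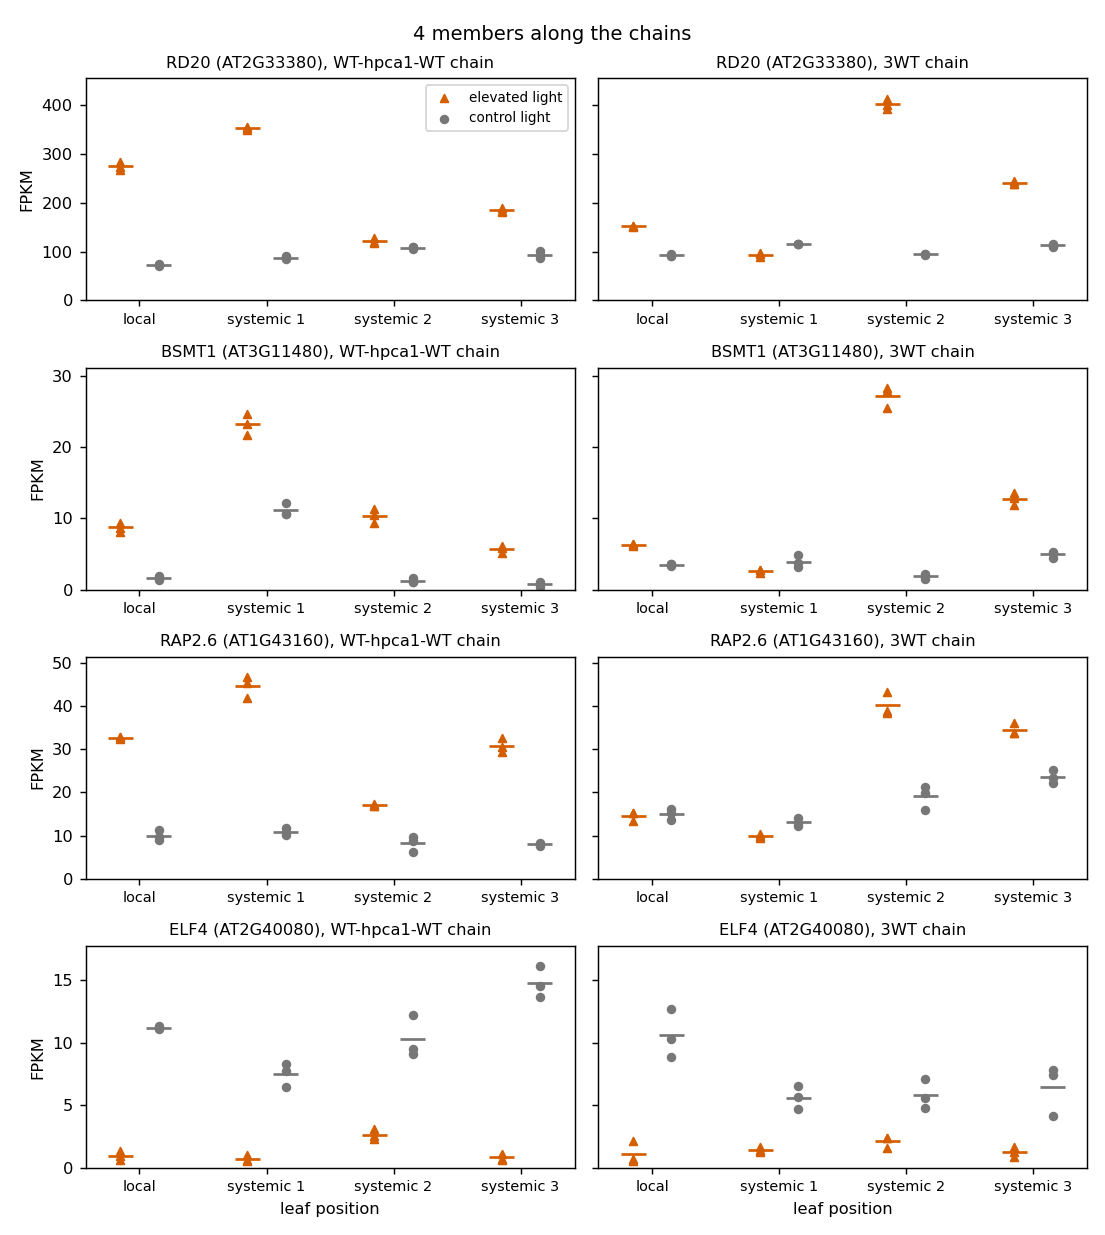
FPKM of RD20, BSMT1, RAP2.6 and ELF4 in every chain library, by leaf position, with elevated light left of control light and bars at the group means. RD20 is highest on systemic leaf 1 in the lit WT-hpca1-WT chain (347 to 355 FPKM) and on systemic leaf 2 in the lit 3WT chain (390 to 412 FPKM), and ELF4 is lower in elevated light at every position of both chains.

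The light responses were compared between chains directly, as the response in the WT-hpca1-WT chain minus that in the 3WT chain. On systemic leaf 1 this difference was positive for 59 members and negative for 15 among those called (7.79% and 15.4% of all genes), with a median over members of 0.24 against -0.07 over all genes. On systemic leaf 3 it was positive for 48 and negative for 23 (8.37% and 5.74%), 68 in all without the control library that stood apart. The local leaf gave 24 and 37 (5.54% and 9.79%), a share of 21.5% of members below 0. On systemic leaf 2 the counts were 28 and 32 (13.0% and 5.88%), and 22 and 41 under median-of-ratios scaling (6.14% and 9.2%). The balance on that leaf thus depended on the scale, among the members and among all genes. Counted in either direction, 61, 74, 60 and 71 members were called over the 4 leaves in order, where 15.3%, 23.2%, 18.8% and 14.1% of all genes were. Without that library 5 calls of members changed. By role, 9 of 11 water deficit members were called on systemic leaf 1, all positive, and 7 on systemic leaf 2, all negative. Defence members were called positive 9, 11, 6 and 13 times, and negative 1, 0, 4 and 2 times, over the local leaf and systemic leaves 1, 2 and 3. The 13 and 2 were the same without that library.

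The largest differences between chains were mostly in genes already described. On systemic leaf 1 they were RAP2.6 (2.32 ± 0.14 log2, SE, limma adjusted p = 1.03e-16) and RD20 (2.29 ± 0.05, limma adjusted p = 1.7e-29), and on systemic leaf 2 RD20 (-1.90 ± 0.05, limma adjusted p = 8.56e-26) and PUB19 (-1.61 ± 0.14, limma adjusted p = 1.07e-11). PUB19 on systemic leaf 2 had 3.18, 3.57 and 3.04 FPKM in elevated and 3.54, 4.17 and 4.66 FPKM in control light in the WT-hpca1-WT chain, and 7.23, 7.22 and 7.29 FPKM against 2.30, 1.70 and 2.77 FPKM in the 3WT chain. On systemic leaf 3 DIP2 (AT5G03210) had 20.4, 25.3 and 27.1 FPKM in elevated and 6.56, 5.51 and 8.62 FPKM in control light in the WT-hpca1-WT chain, and 15.2, 15.5 and 14.1 FPKM against 22.9, 20.7 and 20.0 FPKM in the 3WT chain (difference 2.16 ± 0.20, limma adjusted p = 9.93e-11; 2.31 without the control library that stood apart). Lit and control libraries did not overlap in either chain, with the lit ones above in the WT-hpca1-WT chain and below in the 3WT chain. The control leaves differed more between chains in DIP2 than the lit leaves did. PRR5 on systemic leaf 3 had 1.95, 1.71 and 1.81 FPKM in elevated and 19.2, 20.4 and 17.3 FPKM in control light in the WT-hpca1-WT chain, and 9.31, 8.35 and 8.49 FPKM against 15.7, 13.4 and 14.7 FPKM in the 3WT chain (-2.14 ± 0.12, limma adjusted p = 5.41e-16; -2.20 without that library). It fell in both chains, and less in the 3WT chain.

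In the local leaf the difference for RNS1 (1.97 ± 0.17 log2, SE, limma adjusted p = 1.53e-11) went with unequal control levels. RNS1 had 2.61, 3.17 and 2.14 FPKM in elevated and 2.34, 3.46 and 2.30 FPKM in control light in the WT-hpca1-WT chain, and 1.61, 1.71 and 1.52 FPKM against 8.80, 9.90 and 9.36 FPKM in the 3WT chain. DIN11 (AT3G49620), a gene induced in the dark, was alike, with 3.62, 4.07 and 4.13 FPKM in elevated and 3.02, 2.99 and 2.53 FPKM in control light in the WT-hpca1-WT chain and 3.50, 2.75 and 3.80 FPKM against 9.94, 11.1 and 11.1 FPKM in the 3WT chain. For both genes the control leaves differed more between chains than the lit leaves did. CAX3 (AT3G51860), which moves calcium into the vacuole, fell in the WT-hpca1-WT chain, with 4.85, 4.28 and 4.43 FPKM in elevated and 14.6, 13.5 and 14.2 FPKM in control light, and in the 3WT chain had 8.60, 8.43 and 7.81 FPKM against 8.88, 9.17 and 8.71 FPKM (-1.36 ± 0.08, limma adjusted p = 1.57e-15).

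Control-light leaves of the 2 chains were therefore compared as well; these tests share their control libraries with the differences just given. In the local leaf 23 members were higher and 48 lower in the WT-hpca1-WT chain (7.97% and 4.81% of all genes), on systemic leaf 1 it was 15 and 43 (7.39% and 7.67%), on systemic leaf 2, hpca1-1 against wild type, 42 and 22 (7.83% and 12.5%), and on systemic leaf 3 17 and 58 (5.62% and 11.6%). The last pair, 75 in all, was 69 without the control library that stood apart. Of all genes, 12.8%, 15.1%, 20.3% and 17.3% were called in either direction over these leaves. The plants sampled at the local leaf and at systemic leaves 1 and 3 were wild type in both chains. Defence members were called lower in the WT-hpca1-WT chain 16, 8, 5 and 15 times and higher 0, 2, 3 and 1 times, over the 4 leaves in order. For systemic leaf 3 they were 15 and 0 without that library, and 12 calls of members changed. AT1G07400, a heat shock member, had 4.37, 3.56 and 3.58 FPKM in the local leaf of WT-hpca1-WT chains and 0.986, 1.41 and 1.16 FPKM in that of the 3WT chain (1.15 ± 0.18 log2, SE, limma adjusted p = 6.68e-06). SEN1 on systemic leaf 2 had 180, 187 and 178 FPKM in the WT-hpca1-WT chain and 52.9, 54.0 and 57.1 FPKM in the 3WT chain (1.72 ± 0.05 log2, SE, limma adjusted p = 2.76e-24). RAP2.6 was lower there, at 8.79, 6.20 and 9.65 FPKM against 16, 20.0 and 21.3 FPKM (-1.13 ± 0.10, limma adjusted p = 1.02e-11). On systemic leaf 3 EARLI1 had 3.39, 3.57 and 2.50 FPKM in the WT-hpca1-WT chain and 15.1, 15.8 and 13.9 FPKM in the 3WT chain (-1.95 ± 0.16, limma adjusted p = 1.91e-12; -1.83 without the library that stood apart). Batches of the chains are not in the labels, and their part in these differences was not tested.

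The members did not follow one course along the chains. Over the 16 chain group means, 177 members that reached 1 FPKM in some group had a median pairwise Pearson r of 0.08, against 0.16 for all genes tested. The 177 were not only protein-coding, and the genes tested had passed a different filter. A value for protein-coding members alone is not given, so little can be read from this difference. The members most alike to AT2G25450, the most abundant one, were EXL4 (AT5G09440, r = 0.767), a secreted protein of the EXORDIUM family, AT1G72120 (r = 0.763) and EULS3 (AT2G39050, r = 0.746), a lectin of stress responses, over 16 group means that share libraries with the tests above.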

How the data were processed

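Leaf RNA libraries were sequenced from 9 contact samples and 48 chain samples. The authors deposited FPKM per gene in 2 tables that were normalized separately. Per the submitters' processing notes the tools were Trim Galore 0.6.10, FastQC 0.12.1, HISAT2 2.2.1, SAMtools 1.18, Cufflinks 2.2.1 and Cuffdiff 2.2.1 with TAIR10. FPKM gives no fragment totals, so counting intervals were not computed. Groups came from the sample labels. Members were found from group means of log2(FPKM + 1), a scale that understates changes of low genes. Genes at 1 FPKM or more in at least 3 libraries entered limma 3.58.1 (R 4.3.3), fitted to all groups of a table with a trended variance and Benjamini-Hochberg adjustment over all genes tested. A call is a two-sided adjusted p under 0.05. The procedure was tested on simulated data. Alternatives were another pseudocount, no filter, median-of-ratios scaling, a replicate block, only the groups compared, protein-coding members only, and each library left out.

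The members and lists were chosen with earlier results of these data known. Genes named are the 15 largest 1-week differences, the 10 highest levels after 1 week, members of the pathway lists, the 2 largest rises and falls called in each chain comparison, 3 genes on each side of each threshold, the 2 largest rises and falls called per list among non-members and the 3 members most like the most abundant one. Of these, 7 whose calls were lost under other settings are only named, beside those settings. Other members were named after their values had been seen, to describe the role groups. Promoters and biotypes came from RefSeq TAIR10.1, matched by locus tag for 204 of 206 members.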

Additional observations from a re-analysis of the deposited data

Results flagged for a closer look

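The light response on the same leaf was compared between the chains by a test of the difference itself (limma), as WT-hpca1-WT minus 3WT on the log2 scale, and the 2 largest positive and negative differences called on each leaf are given here. Each rests on 3 libraries per group, and these tests share control libraries with the comparison of the chains in control light. In the lit local leaf the difference was 1.97 for RNS1, 1.80 for DIN11, -1.49 for AT4G33467 and -1.36 for CAX3. On systemic leaf 1 it was 2.32 for RAP2.6, 2.29 for RD20, -1.09 for PRR5 and -1.04 for SEN1. On systemic leaf 2 it was 1.08 for the peroxidase gene PRX52, 1.05 for AT3G22620, -1.90 for RD20 and -1.61 for PUB19. On systemic leaf 3 it was 2.16 for DIP2, 1.68 for the pectin methylesterase gene AT2G45220, -2.37 for AT4G33467 and -2.14 for PRR5. Without the control library that stood apart these were 2.31, 1.64, -2.31 and -2.20.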

How the results depend on the processing

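Of the counts over all members tested, 1 moved by more than 1.5 times outside the fits without single libraries: the 63 members higher on systemic leaf 3 of WT-hpca1-WT chains were 37 when the groups of that comparison were fitted alone. Among the role group counts reported, median-of-ratios scaling took the rises of detoxification members in the local leaf to 4 in WT-hpca1-WT and 5 in 3WT chains (25.7% and 26.1% of all genes on that scale). It took falls of water deficit members on systemic leaf 2 of 3WT chains to 1 (13.4% of all genes). Fitting only the groups compared gave 1 for those falls, 1 for the rises of water deficit members on systemic leaf 2 of WT-hpca1-WT chains, 2 in place of 1 for defence members with a negative difference between chains in the local leaf, and 0 in place of 1 for defence members higher in control light on systemic leaf 3. Of the pathway counts, without a filter 3 flavonoid genes rose at 1 week, the single senescence gene lower at 1 h was lost under median-of-ratios scaling, with the replicate block and without any of 5 single libraries, 1 salicylate gene was lower at 1 h with a pseudocount of 0.1 or no filter, and the flavonoid gene lower at 1 h was lost without replicate 2 of individual plants or of 1 h. No call of a single named gene reversed, and a count has no sign that could reverse. Median-of-ratios scaling changed the sign of some role group medians close to 0 (log2). For nutrient members the median difference in light response between chains on systemic leaf 2 went from 0.0355 to -0.0156. Between chains in control light, detoxification members on systemic leaf 1 went from -0.0072 to 0.0054. Heat shock members on systemic leaf 2 went from -0.0002 to 0.0088. With single libraries left out, 201 to 232 genes met the rule, sharing 183 to 204 with the 206, and with a pseudocount of 0.1 188 did, sharing 168. Without single libraries, members higher and lower were 34 to 35 and 74 to 79 in the local leaf, 43 to 48 and 30 to 34, 15 to 16 and 45 to 47, and 48 to 59 and 21 to 26 on systemic leaves 1, 2 and 3 of the WT-hpca1-WT chain. In the 3WT chain they were 32 to 35 and 77 to 81, 4 to 6 and 53 to 62, 32 to 38 and 53 to 59, and 26 to 30 and 29 to 34. Calls of 7 genes among the largest chain changes, AT1G08937, AT5G09385, U4.2, ATCG00070, AT3G04165, AT3G07365 and AT4G16240, were lost when single libraries were left out or under other settings. Deviations of same-numbered replicates from their group means correlated weakly (-0.202 to 0.277, own number highest in 19 of 42). The highest were between the chains in control light on systemic leaf 2 (0.277, 0.152 and 0.094). Leaf positions of the same chains were not set against each other, so pairing of samples was not excluded. With the replicate block the calls were 34 higher and 78 lower in the local leaf of WT-hpca1-WT chains and 64 and 26 on its systemic leaf 3, and 36 and 81 and 31 and 36 on those of the 3WT chain. FPKM gives no fragment totals, so counting error was not computed, and genes that did not reach 1 FPKM in 3 libraries were not tested.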
